A study of Mus musculus with 6 samples.

Results

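Glycolysis, glucose transport and the hypoxia response were examined in growth plate chondrocytes through 46 named genes: 33 for sugar and lactate transport, glycolysis, its regulation and glycogen, and 13 for oxygen sensing and hypoxia-induced transcription. The genes were taken by name, and 42 of the 46 had a probe set annotated to 1 gene; all 42 passed the filter on low signal and were tested among 17020 genes in all. Where a gene had several such probe sets, the brightest on average across the 6 arrays stood for it.

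Total RNA came from growth plate chondrocytes of the femur and tibia of mice at postnatal day 30. The 3 controls and the 3 mutants carry the replicate numbers 1 to 3, and each sample was hybridised to 1 Affymetrix array. The mutants have a conditional mutation of Lkb1 (gene symbol Stk11), a kinase that activates AMPK, and both groups have a mixed FVB, 129S6 and C57CL/6 background. The allele, the Cre driver, the genotype of the controls and whether animals were pooled have no entry in the sources at hand. The replicates are called biological, but separate animals or litters are not stated, so the p-values reflect sample-to-sample spread, which may be partly technical.

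Levels are log2(intensity + 1), differences are mutant minus control on that scale, and a gene was called at a limma p under 0.05 after adjustment over all genes tested. All 16 tested chondrocyte markers, Col2a1 and Acan among them, exceeded background on all 6 arrays. Of these 16, 1 was called higher and 1 lower in the mutants. Matn1 differed by 1.28 (adjusted p = 0.0248) and Col10a1 by -0.50 (adjusted p = 0.0114). Background is the 95% point of 1035 olfactory receptor probe sets, between 6.40 and 6.73 per array. Of the 28 tested erythroid, neutrophil and B lymphoid markers, 26 were lower and none was higher in the mutants; 25 exceeded background in all controls and 4 in all mutants. Averaged over the markers, control arrays 1, 2 and 3 read 8.49, 9.12 and 9.85, and mutant arrays 1, 2 and 3 read 5.98, 5.94 and 5.72. The 3 control arrays therefore differed among themselves in blood cell transcripts, and all 3 stood apart from the mutants. For each result the part played by blood cell transcripts was not tested. All 9 tested proliferation markers were lower, all 7 macrophage markers were higher, and of 10 fibrous tissue markers 4 were higher and 1 was lower. Of 5 tested osteoblast markers, Col1a1 was higher (difference 1.91) and Phex was lower (difference -0.80). Stk11 itself was at 8.68, 9.08 and 9.67 in controls and 7.39, 7.51 and 7.52 in mutants (difference -1.67, adjusted p = 0.00387). Across the controls Stk11 rose in the order of the blood cell marker mean, whose part in this difference was not tested. Whether its probe set lies in the deleted part is not given either, so Stk11 is at most a partial check of the labels. In these bulk samples fewer cells of a type and less RNA per cell cannot be told apart.

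Glycolysis turns glucose into pyruvate, and lactate dehydrogenase turns pyruvate into lactate. Growth plate cartilage has no blood vessels, and its chondrocytes depend on glycolysis and on the transcription factor HIF-1. With oxygen present, prolyl hydroxylases of the EGLN family mark HIF alpha subunits for destruction through VHL. When oxygen is low the alpha subunit pairs with ARNT, binds the letters ACGTG or GCGTG in DNA, and raises genes for glucose uptake, glycolysis and the hydroxylases themselves.

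The mutants had higher transcripts of the HIF prolyl hydroxylases Egln1 and Egln3, the HIF subunits Epas1 and Arnt, the pyruvate dehydrogenase kinases Pdk2 and Pdk4, and the enzymes Pfkl, Aldoc, Eno2 and Ldhb. P4htm was called higher at levels around background. The glucose transporter Slc2a3 and the glycogen phosphorylase Pygl were lower, and the isoforms Aldoa, Pgk1, Ldha and Tpi1 differed by 0.11 or less. Of the 42 genes 13 were called, or 31.0%, against 14.7% of all genes tested. Among them 11 were higher (26.2%, against 7.84% of all genes) and 2 were lower (4.76%, against 6.82%). Pdk4 and Slc2a3 differed by at least 1. The groups did not overlap for 22 of the 42 (52.4%, against 36.7% of all genes), with all mutants above for 18 (42.9%, against 20.0%) and all below for 4 (9.52%, against 16.7%). The median difference was 0.14, against 0.03 over all genes. These shares are description: the genes were chosen with earlier results of these data known, and they were brighter than most. Of the 42, 36 exceeded background in all controls, against 10189 of the 17020 genes. Taken apart, the 29 tested genes of transport, glycolysis and glycogen had 6 higher, 2 lower and a median of 0.12, and the 13 of oxygen sensing and hypoxia had 5 higher, none lower and a median of 0.16.

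The calls for Slc2a3, Ldhb, Pdk2, Pdk4 and Pygl held in every fit that left out 1 array. For Ldhb these fits used the brightest probe set only, and its other probe set, described below, was not run with arrays left out. The number of calls was 7 without control replicate 2, and 7, 6 and 5 without mutant replicates 1, 2 and 3. It was 7 without control replicates 2 and 3, the arrays with the most blood cell signal, in a fit that assumes that the lone control varies like the mutants. In that fit all 13 called genes kept the sign of their difference. This was fixed in advance, because their groups did not overlap, and says nothing on the part of blood cell transcripts.

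**Figure D1:**
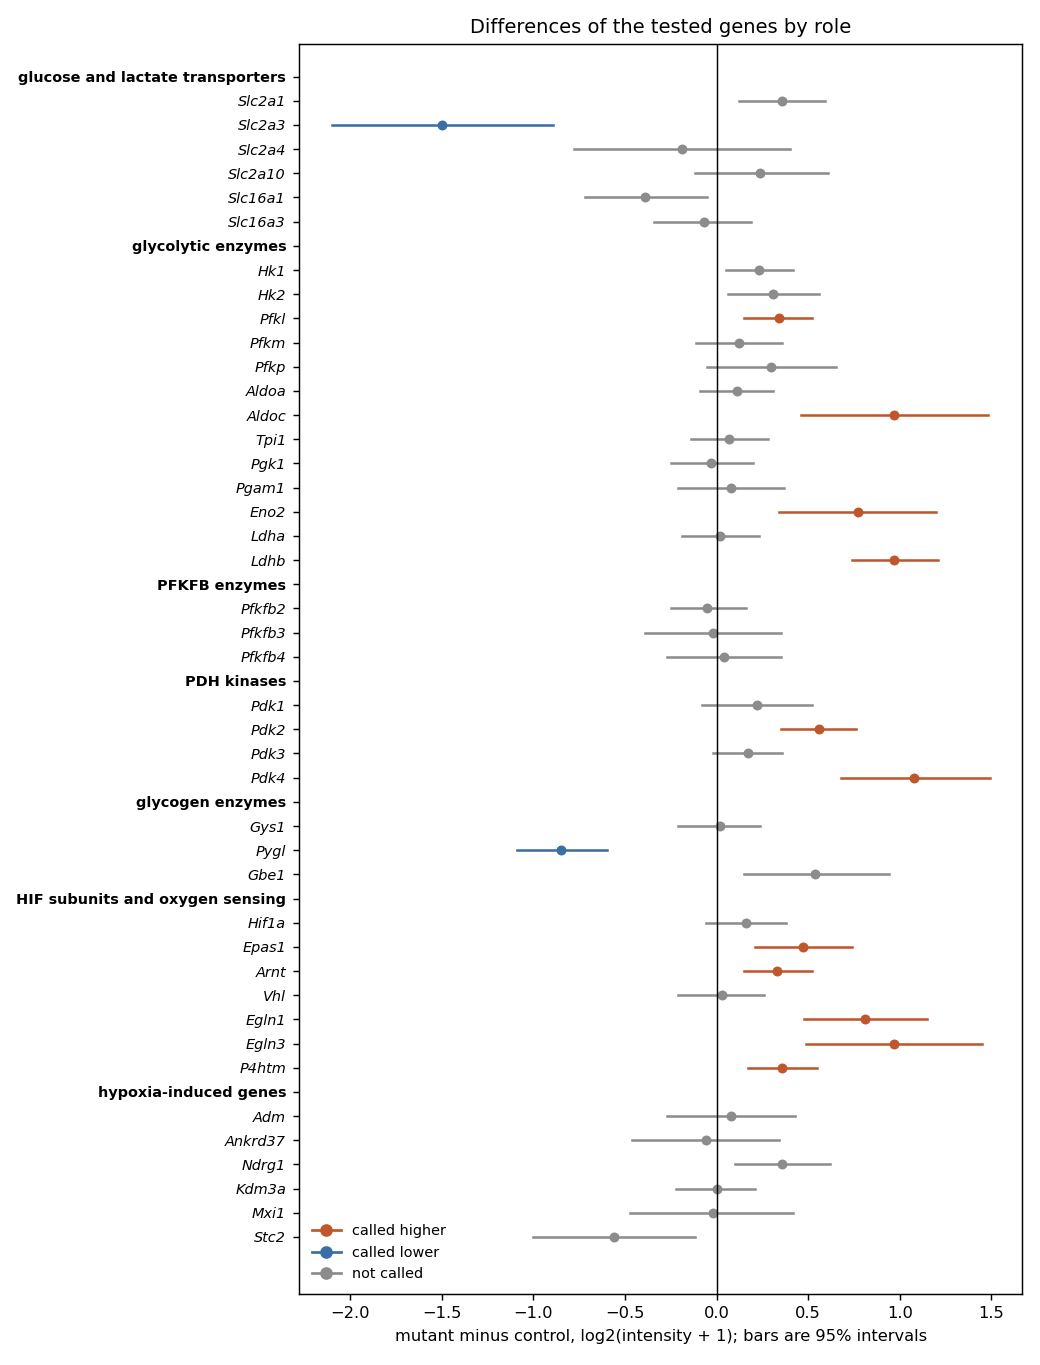
Difference between mutant and control for the 42 tested genes, grouped by role, on the log2(intensity + 1) scale; points are differences of group means (n = 3 each) and bars are 95% intervals. The 11 genes called higher (orange) lie among the glycolytic enzymes, the PDH kinases and the HIF and oxygen-sensing genes, and the 2 called lower (blue) are Slc2a3 and Pygl.

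Promoter sequence shows which of these genes carry the HIF core letters near their start, and it is given for genes that were called and for textbook HIF targets that were not. RefSeq (GRCm38.p6) held promoter windows for 42 of the 46 genes, though not for the same 42 that were tested. The 250 bases before each start were searched on both strands for ACGTG and for GCGTG. An E-box, the palindrome CACGTG, holds the first of these on each strand and was counted on both. Each line runs 5′ to 3′ on the gene's strand, and capitals mark the letters found, which read CACGT or CACGC where they lie on the other strand.
Egln1, chr8:124949285-124949344, minus strand: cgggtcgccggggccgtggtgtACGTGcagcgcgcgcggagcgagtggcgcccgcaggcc
Egln3, chr12:54204065-54204124, minus strand: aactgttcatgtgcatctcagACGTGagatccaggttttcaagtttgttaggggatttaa
Pdk2, chr11:95041460-95041519, minus strand: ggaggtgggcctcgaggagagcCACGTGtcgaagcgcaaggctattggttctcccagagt
Pdk4, chr6:5496312-5496371, minus strand: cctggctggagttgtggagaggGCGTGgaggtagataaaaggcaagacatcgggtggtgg
Pfkl, chr10:78009869-78009928, minus strand: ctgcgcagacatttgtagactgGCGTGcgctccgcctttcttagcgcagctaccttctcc
Ldha, chr7:46845734-46845793, plus strand: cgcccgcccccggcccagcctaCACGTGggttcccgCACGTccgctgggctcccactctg
Pgk1, chrX:106186928-106186987, plus strand: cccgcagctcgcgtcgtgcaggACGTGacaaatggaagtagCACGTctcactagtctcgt
Slc2a1, chr4:119108662-119108721, plus strand: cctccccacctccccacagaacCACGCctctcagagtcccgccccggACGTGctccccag

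The first 5 genes printed were called higher, and Ldha, Pgk1 and Slc2a1 were not called. Every printed stretch holds a motif, but Eno2 and P4htm, also called higher, had neither motif. Windows were held for 10 of the genes called higher, Epas1 being the exception. Either motif was in 9 of 12 windows of the genes called higher (75.0%), in 30 of 42 windows of those not called (71.4%) and in 44.0% of 21263 windows of protein-coding genes. The ACGTG form was in 3 of 12 windows of the genes called higher, 20 of 42 of those not called (47.6%) and 17.8% of all windows. The GCGTG form was in 7 of 12 (58.3%), 18 of 42 (42.9%) and 33.8%. The median GC content was 58.0% and 61.2% in the windows of these 2 sets and 55.6% in all windows. Windows with at least 1 of the 2 motifs thus made up similar shares of both sets. Taken singly, ACGTG was less common and GCGTG more common in windows of the genes called higher. All these shares were larger than over all windows. Windows of 1 gene can overlap, and a match describes the letters and not a site in use.

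Among the carriers of glucose and lactate, Slc2a3 was lower in the mutants and no other member was called. Slc2a3, which encodes the high-affinity glucose transporter GLUT3, read 8.15, 8.56 and 9.26 on control arrays 1, 2 and 3, and 7.34, 6.97 and 7.17 on mutant arrays 1, 2 and 3. All mutants lay below all controls, and control replicate 3 was the highest array. It fell by 1.50 (SE 0.26, adjusted p = 0.01), 2.82-fold. Across the controls Slc2a3 ran in the same order as the neutrophil marker mean, which was 9.39, 10.17 and 10.69 there and 6.62, 6.30 and 6.08 in the mutants. Of 13 neutrophil markers 12 were called lower. The erythroid mean (7.81, 9.16 and 10.24) and the proliferation mean (8.70, 9.08 and 9.69) ran in that control order too. The part of any of these in the Slc2a3 difference was not tested. Against control replicate 1 alone the Slc2a3 difference was -0.99.

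Slc2a1, which encodes GLUT1, the glucose transporter of most cells, had levels of 11.38, 11.32 and 11.12 in controls and 11.64, 11.56 and 11.69 in mutants. The groups did not overlap, but the gene was not called (difference 0.36, 95% interval 0.12 to 0.59, adjusted p = 0.0545). The adjusted p lay between 0.0187 and 0.0458 with quantile normalisation, a pseudocount of 16, a filter at the median or an intensity trend. Slc2a1 was not called with median-centred arrays or the replicate block. Its adjusted p was 0.0364 without control replicate 1. Without any other 1 array it was not called, with adjusted p of up to 0.196. Slc16a1, which encodes the lactate carrier MCT1, was at 9.56, 9.72 and 10.11 in controls and 9.39, 9.46 and 9.38 in mutants (difference -0.39, adjusted p = 0.12). Its groups did not overlap either. Slc16a3, which encodes MCT4, the carrier of lactate export, differed by -0.07 (95% interval -0.34 to 0.19). Slc2a10 differed by 0.24 and Slc2a4, the insulin-responsive transporter GLUT4, by -0.19. Slc2a4 exceeded background on 2 control arrays and 1 mutant array, and its difference was 0.05 without control replicate 3.

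Of 13 tested glycolytic enzymes, 4 were higher, none was lower and the median difference was 0.23. That median is the value of Hk1, whose probe sets disagree, and it was 0.12 with the other Hk1 probe set or with the mean of each gene's probe sets. The 4 were Pfkl, Aldoc, Eno2 and Ldhb, and Ldhb alone was called without control replicate 2 or any single mutant. Pfkl, the liver-type subunit of phosphofructokinase, which sets the pace of glycolysis, had levels of 8.36, 8.35 and 8.41 in controls and 8.69, 8.75 and 8.69 in mutants. The arrays of each group were close together, and the mutants were higher by 0.34 (SE 0.08, adjusted p = 0.0314). Its muscle and platelet counterparts Pfkm and Pfkp differed by 0.12 and 0.30 and were not called.

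Aldoc encodes aldolase C, an isoform best known from brain. Control arrays 1, 2 and 3 read 8.23, 7.78 and 7.26, and the mutants 8.71, 8.77 and 8.71. All mutants were above all controls, and the controls fell in the order in which their blood cell markers rose. Aldoc rose by 0.97 (SE 0.22, adjusted p = 0.0259), 1.96-fold, and the difference was 0.50 against control replicate 1 alone. Aldoa, the aldolase of most tissues, differed by 0.11 (95% interval -0.09 to 0.31).

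Eno2 encodes enolase 2, an isoform known from neurons and induced by HIF-1. It was at 7.35, 7.00 and 6.63 in controls and 7.94, 7.62 and 7.72 in mutants, with the same order among the controls as Aldoc. It rose by 0.77 (SE 0.18, adjusted p = 0.0319), and by 0.41 against control replicate 1 alone. It exceeded background in 2 of 3 controls, which limits the size of the difference. Pfkl, Aldoc and Eno2 lost their calls when control replicate 2 or any single mutant was left out, with adjusted p of up to 0.124, 0.0884 and 0.114.

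Ldhb encodes the H subunit of lactate dehydrogenase, which favours the turn of lactate into pyruvate. Its levels were 6.84, 6.69 and 6.61 in controls and 7.65, 7.81 and 7.61 in mutants, a gap several times the spread within either group. Across the controls this probe set of Ldhb fell in the order in which their blood cell markers rose, as did Aldoc and Eno2. The other Ldhb probe set, described below, did not. Of all 42 tested genes, called or not, 19 fell in this order across the controls and 9 rose. Ldhb rose in the mutants by 0.97 (SE 0.10, adjusted p = 0.00143), and by 0.85 against control replicate 1 alone. Of the controls 2 exceeded background. Ldha encodes the M subunit, which favours lactate production, and its levels of 11.99, 11.78 and 11.84 in controls and 11.89, 11.88 and 11.90 in mutants overlapped. The difference was 0.02 (95% interval -0.19 to 0.23).

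**Figure D2:**
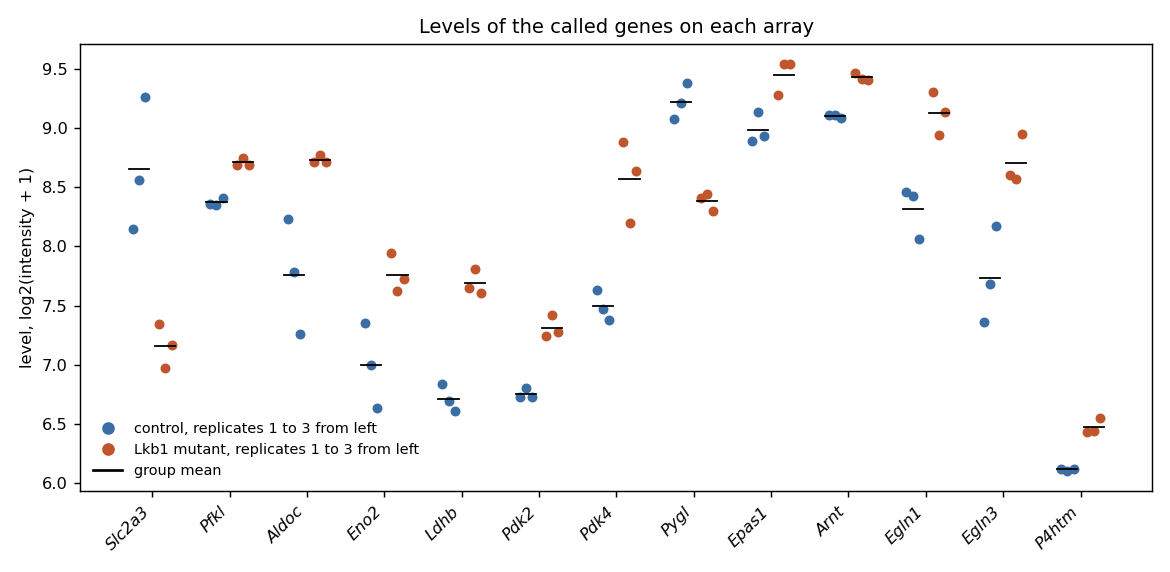
Level of the 13 called genes on each array, as log2(intensity + 1), with control replicates 1 to 3 in blue, mutant replicates 1 to 3 in orange and group means as black lines; levels compare between arrays of a gene and not between genes. The groups did not overlap for any of the 13, and the controls of Slc2a3, Aldoc, Eno2 and Egln3 spread more widely than the mutants.

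The hexokinases, which trap glucose in the cell, were not called. Hk2, the isoform induced by HIF-1, was at 8.93, 8.96 and 8.80 in controls and 9.03, 9.32 and 9.28 in mutants (difference 0.31, adjusted p = 0.0965). For Hk1 the probe sets went in opposite directions. Probe set 10414661, the brighter and so the one tested, was at 11.12, 11.05 and 11.03 in controls and 11.32, 11.30 and 11.28 in mutants (difference 0.23, adjusted p = 0.099, and 0.0199 with an intensity trend). Probe set 10369541 was at 10.24, 10.16 and 10.32 in controls and 9.89, 9.99 and 9.94 in mutants, a difference of -0.30 (adjusted p = 0.0597 when it stood for the gene). In both the groups did not overlap. A direction for Hk1 therefore depends on the probe set.

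Probe set numbers follow the genome closely: for 96.3% of 21698 probe sets, most of the nearest 10 named probe sets by number on either side belonged to genes of the same chromosome. Hk1 lies on chromosome 10, and probe set 10414661 had neighbours on chromosome 14, while 10369541 had neighbours on chromosome 10. For Ldhb, on chromosome 6, the tested probe set 10462035 had neighbours on chromosome 19. Its other probe set, 10549097, with neighbours on chromosome 6, was at 6.69, 6.96 and 6.84 in controls and 7.24, 7.45 and 7.45 in mutants. That difference was 0.55 (adjusted p = 0.0168), in the same direction and smaller. The tested probe sets of Pgk1 and Pgam1 also had neighbours on other chromosomes, but every probe set of Pgk1 gave -0.03 and those of Pgam1 gave 0.08 to 0.10.

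**Figure D3:**
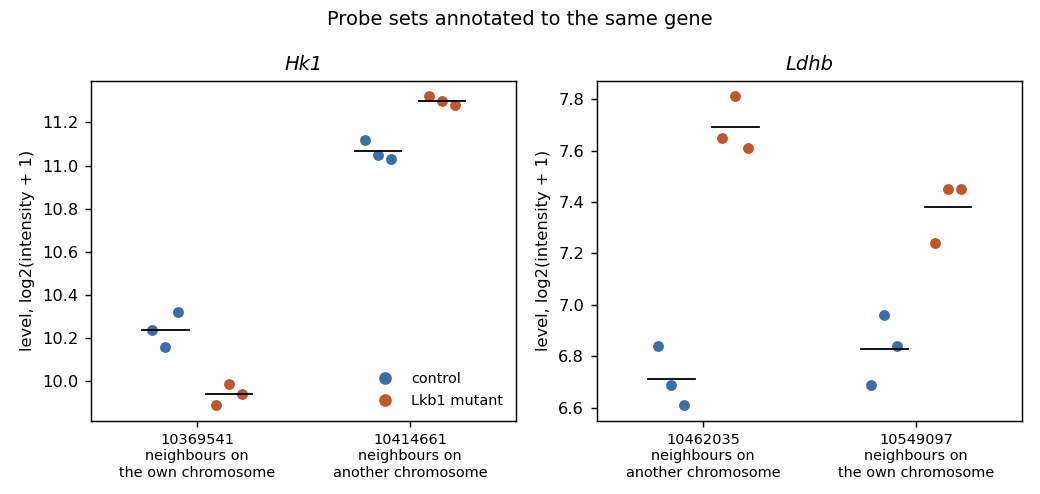
Levels, as log2(intensity + 1), of both probe sets annotated to Hk1 (left) and to Ldhb (right) on each array, with control arrays in blue, mutant arrays in orange and group means as black lines. The Hk1 probe sets differed by -0.30 and 0.23 between mutant and control, and those of Ldhb by 0.97 and 0.55.

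The remaining enzymes of the pathway differed little. Tpi1 (triose phosphate isomerase), Pgk1 (phosphoglycerate kinase, which makes the first ATP of the pathway) and Pgam1 (phosphoglycerate mutase) differed by 0.07, -0.03 and 0.08. Their 95% intervals lay within -0.25 and 0.37. Gapdh had 25 probe sets, all annotated also to further loci, with differences of 0.08 to 0.11, and was not tested. For Gpi1, Eno1 and Pfkfb1 the annotation used lists no probe set, so their expression was not analysed here, and only their promoters were searched.

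The PFKFB enzymes make or remove fructose 2,6-bisphosphate, the strongest activator of phosphofructokinase. None of the 3 tested was called. Pfkfb3, the isoform with the highest kinase activity, was at 9.39, 9.32 and 9.05 in controls and 8.91, 9.39 and 9.40 in mutants (difference -0.02, 95% interval -0.39 to 0.35). Pfkfb2 was at 6.95, 6.92 and 6.81 in controls and 6.78, 6.85 and 6.91 in mutants (difference -0.05). Pfkfb4 was at 7.15, 7.26 and 7.50 in controls and 7.55, 7.20 and 7.27 in mutants (difference 0.04). The groups overlapped for all 3.

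Pyruvate dehydrogenase kinases shut the entry of pyruvate into the citric acid cycle, and 2 of the 4 were higher in the mutants. Pdk4, the isoform induced by fasting, had levels of 7.63, 7.47 and 7.38 in controls and 8.88, 8.20 and 8.64 in mutants. Every mutant exceeded every control, and mutant replicate 2 was the lowest of the mutants. The controls fell in the order in which their blood cell markers rose. Pdk4 rose by 1.08 (SE 0.17, adjusted p = 0.00748), 2.12-fold, the greatest increase among the 42 genes, and by 0.95 against control replicate 1 alone. Pdk2, the most widely expressed isoform, was at 6.73, 6.80 and 6.73 in controls and 7.24, 7.42 and 7.28 in mutants. It rose by 0.56 (SE 0.09, adjusted p = 0.00703), and by 0.58 against control replicate 1 alone.

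Pdk1, the isoform induced by HIF-1, was at 8.33, 8.17 and 7.87 in controls and 8.28, 8.41 and 8.33 in mutants. These groups overlapped (difference 0.22, adjusted p = 0.319), and the difference was 0.01 against control replicate 1 alone. Pdk3 was at 8.52, 8.43 and 8.48 in controls and 8.63, 8.63 and 8.67 in mutants. Its groups did not overlap, and it was not called (difference 0.17, adjusted p = 0.216).

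Of the glycogen enzymes, Pygl was lower and the others were not called. Pygl, the liver-type phosphorylase that releases glucose from glycogen, was at 9.08, 9.21 and 9.38 in controls and 8.41, 8.44 and 8.30 in mutants. It fell by 0.85 (SE 0.11, adjusted p = 0.00281). Across the controls its order was that of the blood cell markers, and the difference was -0.70 against control replicate 1 alone. Gbe1, the branching enzyme of glycogen, was at 8.31, 7.98 and 7.91 in controls and 8.93, 8.50 and 8.39 in mutants; its groups did not overlap (difference 0.54, adjusted p = 0.0731). Gys1, glycogen synthase, was at 7.66, 7.65 and 7.69 in controls and 7.77, 7.53 and 7.75 in mutants, a difference of 0.02.

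In the oxygen-sensing group 5 of 7 were higher, none was lower, and the median difference was 0.36. The count was lower with 1 array fewer. It was 0 without mutant replicate 3, 1 without mutant replicate 2, and 2 without mutant replicate 1 or control replicate 2. Over all genes calls also fell, from 2496 to 936, 1185, 1198 and 1329 in the same order of arrays left out. The median difference of the group stayed between 0.34 and 0.38 without any 1 array. With median-centred arrays the count was 3. Egln3 and Egln1 encode the HIF prolyl hydroxylases PHD3 and PHD2, and both genes are themselves induced by HIF. Egln3 read 7.36, 7.68 and 8.17 on control arrays 1, 2 and 3, and 8.60, 8.57 and 8.95 on the mutant arrays. All mutants were above all controls, and control replicate 3 was the highest control. It rose by 0.97 (SE 0.21, adjusted p = 0.0212), and the difference was 1.35 against control replicate 1 alone. Across the controls its order was that of the blood cell markers, whose part was not tested.

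Egln1, the main hydroxylase that acts on HIF alpha subunits, was at 8.46, 8.43 and 8.06 in controls and 9.31, 8.94 and 9.14 in mutants. It rose by 0.81 (SE 0.14, adjusted p = 0.0107), 1.75-fold, and by 0.67 against control replicate 1 alone. Its adjusted p was 0.0522 without mutant replicate 3. P4htm, a transmembrane prolyl hydroxylase that can also act on HIF alpha, was at 6.12, 6.10 and 6.12 in controls and 6.43, 6.44 and 6.55 in mutants. It was called (difference 0.36, adjusted p = 0.0276) but exceeded background on none of the controls and on 1 mutant array.

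Of the HIF subunits, Epas1 and Arnt were higher and Hif1a was not called. Epas1, which encodes HIF-2 alpha, was at 8.89, 9.14 and 8.93 in controls and 9.28, 9.54 and 9.54 in mutants, higher by 0.47 (SE 0.11, adjusted p = 0.0329). Endothelial cells also express Epas1, and 8 of 10 endothelial markers were higher in the mutants. Their mean was 6.60, 6.59 and 6.72 in controls and 7.20, 7.42 and 7.40 in mutants; 5 of the 10 exceeded background in all controls and 7 in all mutants. The part of endothelial transcripts in the Epas1 difference was not tested. Arnt, the partner of both alpha subunits, was at 9.11, 9.11 and 9.09 in controls and 9.47, 9.42 and 9.41 in mutants, higher by 0.33 (SE 0.08, adjusted p = 0.0316).

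Hif1a, the alpha subunit that cartilage cells need to survive, was at 11.25, 11.23 and 11.02 in controls and 11.32, 11.36 and 11.30 in mutants. The groups did not overlap and the gene was not called (difference 0.16, 95% interval -0.06 to 0.38, adjusted p = 0.317). Vhl, the ubiquitin ligase subunit that removes hydroxylated HIF, was at 7.25, 7.33 and 7.40 in controls and 7.20, 7.43 and 7.43 in mutants, a difference of 0.03. Leaving out control replicate 2 or any single mutant ended the calls of Egln3, Arnt and P4htm (adjusted p of up to 0.0873, 0.12 and 0.136). Epas1 lost its call without control replicate 1 or 3 and without mutant replicate 2 or 3 (adjusted p of up to 0.136). With arrays centred on their medians the adjusted p was 0.0597 for Arnt and 0.051 for P4htm.

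**Figure D4:**
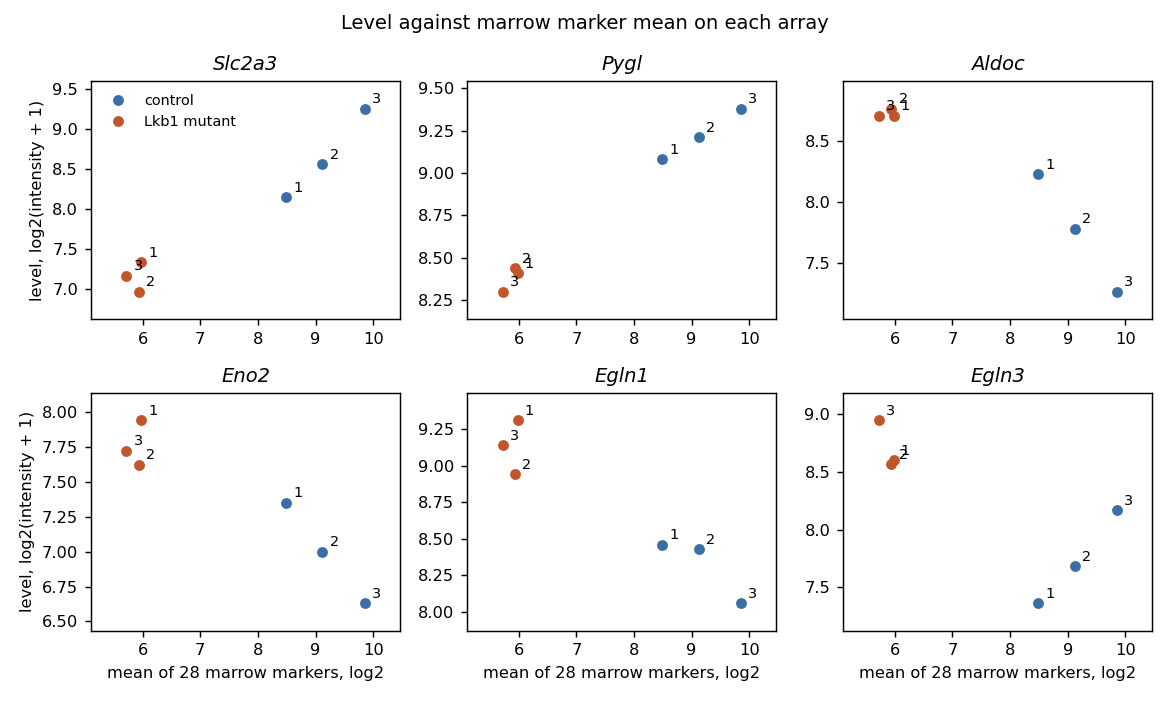
Level of 6 called genes, as log2(intensity + 1), against the mean level of 28 erythroid, neutrophil and B lymphoid markers on the same array, with control arrays in blue, mutant arrays in orange and the replicate number beside each point. Across the controls Slc2a3, Pygl and Egln3 rose with the marker mean (8.49 to 9.85) while Aldoc, Eno2 and Egln1 fell, and all mutants lay between 5.72 and 5.98 on the marker axis.

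None of the 6 genes listed as hypoxia-induced was called at an adjusted p of 0.05. That list leaves out the hydroxylases and the HIF-1-induced Eno2, Hk2 and Pdk1, which are described above and of which Eno2 was called higher. Ndrg1, a differentiation gene induced by hypoxia, was at 10.27, 10.44 and 10.10 in controls and 10.73, 10.55 and 10.62 in mutants. Its groups did not overlap (difference 0.36, 95% interval 0.10 to 0.62, adjusted p = 0.0723), and the adjusted p was 0.0417 with an intensity trend. In the fits that left out 1 array it lay between 0.0665 and 0.211. Stc2, a secreted glycoprotein that restrains IGF release, was at 9.46, 9.01 and 8.86 in controls and 8.76, 8.26 and 8.64 in mutants, with all mutants below (difference -0.56, adjusted p = 0.0923).

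The other 4 overlapped. Kdm3a, a histone demethylase, Mxi1, a MYC antagonist, and Ankrd37 differed by less than 0.07 in size. Adm, the vasodilator peptide adrenomedullin, differed by 0.08, and it exceeded background on 1 control array and 2 mutant arrays. Among these 6 genes the unadjusted p was under 0.05 for Ndrg1 (0.0131) and Stc2 (0.0191).

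Wider lists of the same pathways, 119 genes of which 109 were tested, split in direction: 10 were called higher (9.17%, against 7.84% of all genes) and 14 lower (12.8%, against 6.82%). Their median difference was 0.05. Of 35 further hypoxia-induced genes, 7 were higher and 2 lower, with a median difference of 0.18; 12 were higher without control replicate 1 and 5 without mutant replicate 3. Stc1, a secreted calcium and phosphate regulator, rose by 1.42 (adjusted p = 0.00228) from levels below background in all controls. Lox, which crosslinks collagen, rose by 1.33 (adjusted p = 0.0103, and 0.0513 without mutant replicate 3). The fibrous tissue markers averaged 9.03, 9.04 and 8.73 in controls and 9.50, 9.58 and 9.57 in mutants, and their part in the Lox difference was not tested. Ndufa4l2, a mitochondrial protein induced by HIF-1, was at 8.57, 8.53 and 8.23 in controls and 9.56, 9.55 and 9.78 in mutants, and rose by 1.18 (SE 0.12, adjusted p = 0.00139). Cxcr4, a chemokine receptor also carried by blood cells, fell by 1.86 (adjusted p = 0.00461).

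Genes that steer sugar towards other pathways moved as follows. Of 19 further glycogen genes, 3 were higher and 2 lower, and Ppp1r3c alone was called without mutant replicate 3. Ppp1r3c, a scaffold that directs phosphatase to glycogen and favours its synthesis, was at 8.57, 8.88 and 8.84 in controls and 10.63, 10.40 and 10.44 in mutants. It rose by 1.73 (SE 0.12, adjusted p = 0.000337), more than any of the 42 genes, and by 1.92 against control replicate 1 alone. Gsk3b, a kinase that inhibits glycogen synthase, fell by 0.55 (adjusted p = 0.00917, and 0.0536 without mutant replicate 3). Ugp2, which makes UDP-glucose, fell by 0.39, and Epm2a, the glycogen phosphatase laforin, rose by 0.42 around background. Ugp2 lost its call without control replicate 2 and both lost it without each mutant in turn, with adjusted p of up to 0.121 and 0.101.

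Of 8 pentose phosphate genes 3 were lower and none higher, with a median difference of -0.44. Taldo1 (transaldolase), Tkt (transketolase) and Pgd fell by 1.05, 0.72 and 0.54, with adjusted p of 0.02, 0.0245 and 0.0228. All 3 rose across the controls with the blood cell markers; Taldo1 was at 8.61, 8.94 and 9.55 there and 7.87, 8.03 and 8.06 in the mutants. Against control replicate 1 alone their differences were -0.62, -0.44 and -0.37. Each lost its call without control replicate 2 and without mutant replicates 2 and 3, and Taldo1 and Tkt also without mutant replicate 1 (adjusted p of up to 0.0786, 0.0864 and 0.102).

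Of 12 further glycolysis genes, Bpgm and Adpgk were lower. Bpgm, the red cell enzyme that makes 2,3-bisphosphoglycerate, was at 7.44, 7.97 and 8.73 in controls and 5.75, 5.88 and 5.94 in mutants, and exceeded background on no mutant array. All 6 tested erythroid markers were called lower, with means of 7.81, 9.16 and 10.24 in controls and 5.26 to 5.53 in mutants; none of the 6 exceeded background in all mutants. Bpgm fell by 2.19 (adjusted p = 0.00352), and Adpgk fell by 0.96 (adjusted p = 0.0164, and up to 0.0677 without single mutants). Among 10 further carriers Slc2a6 and Slc2a5 fell by 2.08 and 1.29 (adjusted p = 0.0015 and 0.00515), to levels below background in all mutants.

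Among the carbohydrate-responsive regulators, Txnip, which restrains glucose uptake and is itself induced by glucose, was the 1 call of 5. It was at 10.74, 10.55 and 10.66 in controls and 10.09, 9.80 and 9.91 in mutants, and fell by 0.72 (SE 0.11, adjusted p = 0.00561). Its difference was -0.81 against control replicate 1 alone. Of the pyruvate dehydrogenase complex and its phosphatases, Pdp2, a phosphatase that opposes the kinases, fell by 0.49 (adjusted p = 0.0366) and was below background in all mutants. Its call ended without any 1 array except control replicate 2, with adjusted p of up to 0.125. Pck2, the mitochondrial enzyme that makes phosphoenolpyruvate, fell by 0.58 (adjusted p = 0.0153, and up to 0.0664 without mutant replicate 2 or 3). None of 7 further HIF and oxygen-sensing genes was called, and Egln2, the remaining EGLN hydroxylase, differed by 0.20 (adjusted p = 0.198).

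**Figure D5:**
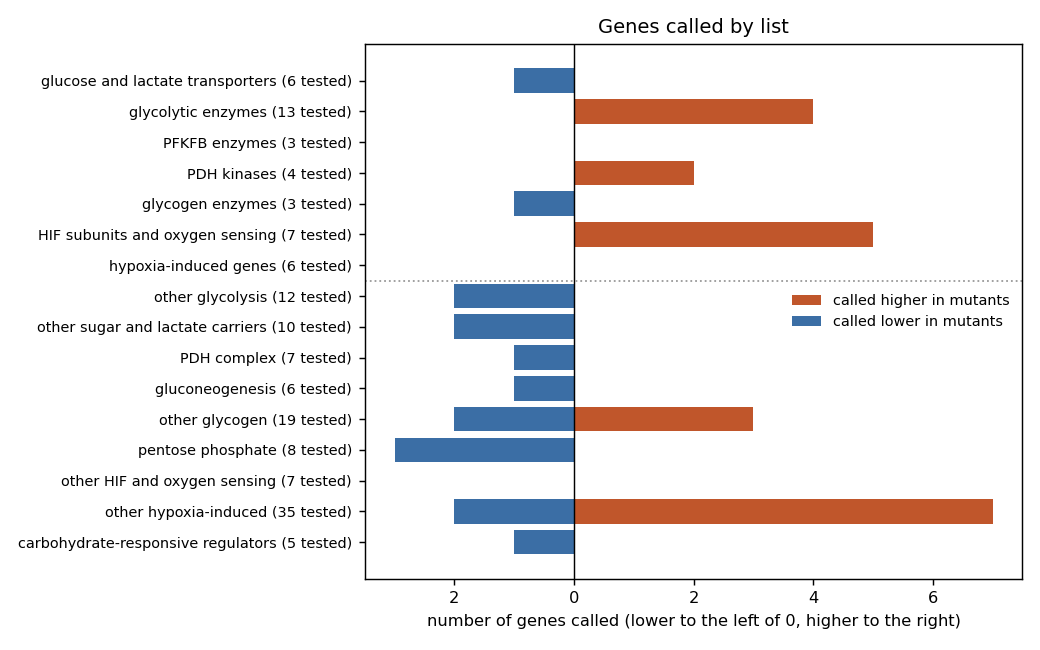
Number of genes called higher (orange, right of 0) and lower (blue, left of 0) in the mutants, by list, with the number tested in brackets; the dotted line separates the roles of the 42 genes from the wider lists. The oxygen-sensing group had 5 calls among 7 genes, all higher, and 0 without mutant replicate 3. The pentose phosphate list had 3 among 8, all lower, and 0 without control replicate 2 or mutant replicate 2 or 3. Over all genes calls fell from 2496 to 1329, 1185 and 936 without control replicate 2, mutant replicate 2 and mutant replicate 3 in turn.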

How the data were processed

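The values are the intensities that the authors deposited per probe set, on a linear scale; the summary and normalisation methods are not given in the sources used here. Array medians lay between 82.4 and 90.5, and 3 arrays per group limit the precision. All columns matched a sample. Gene names come from the platform annotation and were brought to RefSeq (GRCm38.p6) symbols by gene number: of 35512 probe sets 21789 had 1 gene, 1621 several and 12102 were not listed; 21698 matched by number.

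Values were taken as log2(intensity + 1). Probe sets in the lowest 25% by mean (below 5.56) were left out. The comparison used lmFit and eBayes of limma 3.58.1 (R 4.3.3), two-sided, with Benjamini-Hochberg adjustment over 17020 genes, and was checked on simulated data. Alternatives were other scaling, filters, pseudocount, probe set choice, an intensity trend, a replicate block and arrays left out.

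The genes, lists and alternatives were chosen with earlier results of these data known. All 46 genes are named; values on every array are given for called genes and the 2 uncalled genes with the smallest p in each role list, and each wider list is represented by up to 4 called genes with the largest difference, or else the gene with the smallest p, with array values for a few of them. Those few, and array values for Ldha, Pfkfb3 and further probe sets, were chosen after they were seen. Whether equal replicate numbers mark paired samples is not stated, and the main comparison used no pairing. Same-numbered arrays correlated at 0.08, 0.213 and -0.083 in their deviations from the group means. Differently numbered arrays correlated at -0.177 to 0.106. With 3 arrays per group these values cannot decide whether samples were paired.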

Additional observations from a re-analysis of the deposited data

How the results depend on the processing

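The number of called genes among the 42 was 13, and 11 to 16 under the alternatives that kept all arrays: 14 with quantile normalisation or a pseudocount of 16, 16 with an intensity trend, 11 with median-centred arrays. With the replicate block it was 11: Pfkl, Arnt and P4htm lost their calls (adjusted p = 0.078, 0.0775 and 0.0663), Gbe1 gained one (0.0222), and over all genes 2031 were called. Leaving out 1 array gave 5 to 15 calls, 3 to 12 of them higher; over all genes 936 to 3282 and in the wider lists 11 to 34, against 2496 and 24. Without control replicates 2 and 3 there were 7 calls, 4 higher and 3 lower. Choosing the probe set with neighbours on the gene's own chromosome, a setting added after the data were seen, left 13 calls and turned Hk1 to -0.30; the mean of its probe sets gave -0.03. Quantile normalisation turned Pfkfb3 to 0.01 and Kdm3a to 0.02. Leaving out 1 array turned the sign of 12 uncalled genes, and of no other of the 42: the lowest and highest differences were -0.47 and 0.05 for Slc2a4, -0.17 and 0.00 for Slc16a3, -0.06 and 0.04 for Pgk1, -0.02 and 0.08 for Ldha, -0.12 and 0.14 for Pfkfb3, and -0.07 and 0.13 for Pfkfb4. They were -0.03 and 0.09 for Gys1, -0.01 and 0.11 for Vhl, -0.08 and 0.19 for Adm, -0.25 and 0.07 for Ankrd37, -0.06 and 0.05 for Kdm3a, and -0.22 and 0.17 for Mxi1. No result was run with another summary of the probes.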
